A study of Sus scrofa with 12 samples.

Results

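Interstitial cells of the pig aortic valve, whose tissue label reads aorta, were compared between calcification stages in culture, as the 3 libraries of Stage 3 with DMSO, the vehicle of the study's drug arm, against the 3 libraries of Stage 2. These 6 libraries are part of 12, and every gene of the deposited gene table entered the comparison. Of its 22861 genes, 13046 reached 1 RPKM (reads scaled to exon length and to library depth) in at least 3 of the 12 libraries and were tested, and the other 9815 were not. All groups were grown on glass, the calcification stimulus of the labels, in DMEM. Stage 2 was taken at day 8 and received no vehicle, while the Stage 3+DMSO cultures were given DMSO at Stage 3. The labels give 5, 8 or 12 days of growth but no day for Stage 3, and no dose or time for DMSO, so the stage, the days in culture and the vehicle cannot be told apart. The libraries are called biological replicates, and nothing says whether they came from separate animals, so p-values measure the spread between these cultures.

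Valve interstitial cells lay down and remodel the collagen, elastic fibres and proteoglycans of the leaflet. Grown on a stiff surface they take on contractile, myofibroblast features and gather into nodules that can mineralise, a culture model of valve calcification. Whether mineral forms depends, among other things, on the balance of matrix that holds it, of bone-type transcription factors and of inhibitors such as matrix Gla protein and pyrophosphate.

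Library totals recovered from the RPKM values were 14712015 to 20953807 in the 6 libraries, with 26636289 to 37965374 reads assigned over genes. The reads over genes were 1.80 to 1.81 times the total in each library, so the 2 figures do not count the same unit. The total was taken from the smallest step of the values, and the reason for the gap was not tested. All 18 markers of valve interstitial cells and fibroblasts were detected. VIM, COL1A2 and COL3A1, for vimentin and the main fibrillar collagens, stood at 4891 to 11573 RPKM in the 6 libraries. Several defining markers of other cells were absent. PTPRC, CD163 and CD3D, of leukocytes, MYOD1 and MYOG, of skeletal muscle, and TNNT2 and NPPA, of cardiomyocytes, were at 0 in all 6, and the summed level of 12 epithelial markers was under 1 RPKM in each library. Of 13 endothelial markers VWF and KDR were under 0.1 RPKM, and the list summed to 90.04, 93.9 and 95.1 RPKM at Stage 2 and 95.9, 120.1 and 106 RPKM in Stage 3+DMSO with ERG the most abundant. The 17 leukocyte markers summed to 281, 293 and 308 RPKM and 256, 279 and 238 RPKM, nearly all from CD79A, a B cell gene, at 222 to 293 RPKM. The 8 skeletal muscle markers summed to 245, 211 and 181 RPKM at Stage 2 and 110.0, 135 and 114 RPKM in Stage 3+DMSO, nearly all from ACTA1, skeletal actin, which fell (log2 fold change -0.82, limma adjusted p = 6.07e-05). The 8 osteoclast markers summed to 1259, 1304 and 1347 RPKM and 1972, 2474 and 2843 RPKM, from the cathepsin CTSK and from NFATC1, a transcription factor named after its values were seen, at 32.8, 34.8 and 33.3 RPKM at Stage 2 and 23.6, 32.6 and 32.1 RPKM in Stage 3+DMSO, and the others stayed under 0.2 RPKM. The 9 pericyte markers summed to 496, 487 and 432 RPKM and 275, 369.7 and 394 RPKM. The 11 cardiomyocyte markers summed to 1.16, 1.91 and 2.36 RPKM at Stage 2 and 3.80, 4.40 and 3.56 RPKM in Stage 3+DMSO. Of their 2 tested members 1 was called higher (log2 fold change 1.17). In bulk RNA a change in the number of cells of a kind and a change in RNA per cell cannot be told apart. The share of reads in the 100 most abundant genes was 35.9 to 37.4% at Stage 2 and 32.4 to 33.0% in Stage 3+DMSO. The median log2 ratio of last to first exon, a sign of RNA integrity, was 0.22 ± 0.03 at Stage 2 and 0.20 ± 0.01 in Stage 3+DMSO (SD, n = 3; two-sided exact permutation p = 0.5, where 0.1 is the smallest possible).

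A total of 5755 of the 13046 tested genes passed an adjusted p of 0.05 in limma on log2(RPKM + 1), which is 44.1%. As deposited, 4309 genes (33.0%) were higher in Stage 3+DMSO and 1446 (11.1%) lower, and the 2 groups did not overlap in 6663 genes (51.1%). The balance of directions depends on the scale. The deposited values of Stage 2 carried median-ratio size factors of 0.911 to 0.959 and those of Stage 3+DMSO 1.052 to 1.056, and dividing by them moved the median log2 fold change of all genes from 0.15 to 0.01. After this rescaling 5168 genes passed (39.6%), 2625 higher (20.1%) and 2543 lower (19.5%). Of the 5755 calls 4071 were made the same way on both scales, and the other 1684, all higher as deposited, were lost. The rescaling added 1097 lower calls. A change given as a single number is the difference of mean log2(RPKM + 1), Stage 3+DMSO minus Stage 2.

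**Figure D1:**
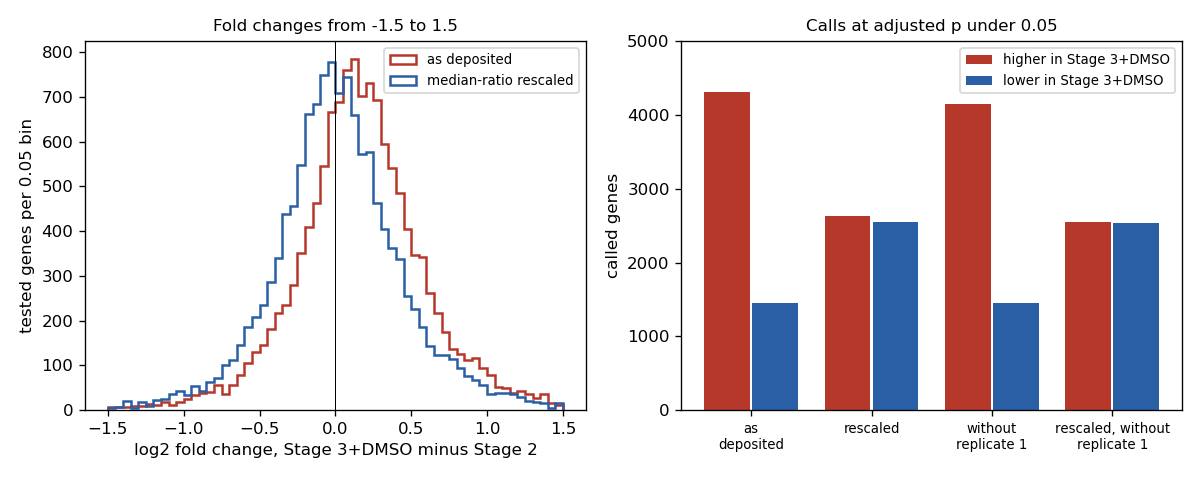
Left, log2 fold changes of the tested genes between -1.5 and 1.5 as deposited and after median-ratio rescaling, in tested genes per bin. Right, called genes higher and lower in Stage 3+DMSO in 4 fits. As deposited 4309 were higher and 1446 lower, and after rescaling 2625 and 2543.

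One library stood apart. Interferon-response genes, which are induced by type I interferon and by viral RNA sensors, were high in Stage 3+DMSO replicate 1. The list summed to 584, 456 and 509 RPKM in the Stage 2 libraries and to 1622, 444 and 482 RPKM in Stage 3+DMSO. MX1, an antiviral GTPase, had 71.01, 31.2 and 35.2 RPKM at Stage 2 and 247, 32.5 and 34.2 RPKM in Stage 3+DMSO. The other Stage 3+DMSO libraries fell inside the Stage 2 range, and MX1 did not pass (adjusted p = 0.431). Of 31 tested members 4 passed, GBP1, STAT2, IFIH1 and PARP9, all higher, and of these IFIH1 and PARP9 were not called after rescaling. Replicate 1 was picked for leaving out because its interferon genes were already known to be high. The changes in these genes on its removal follow from that choice and are no separate evidence. Without replicate 1 the list's median log2 fold change went from 0.64 to 0.04, and 3 members were higher and 3 lower, OAS1 and GBP2 among the latter. The 10 genes that moved most without this library were RSAD2, IFIT1, ISG12(A), OAS1, MX2, DDX58, IFIT3, CMPK2, IFIT2 and MX1, and the ID table names the IFIT3 row IFIT1. Of 8 tested antigen presentation genes 2 were higher and 1 lower (25.0% and 12.5%), the same counts after rescaling and without replicate 1. Among them B2M, the light chain of class I molecules, also stood highest in replicate 1. B2M was 2842, 1515 and 1483 RPKM in Stage 3+DMSO replicates 1 to 3, against 1200.4, 1158 and 1138 RPKM at Stage 2. It was not called in a fit of the 6 libraries alone (adjusted p = 0.0528). Over all genes, 5608 passed without replicate 1 (43.0%), 4153 higher (31.8%) and 1455 lower (11.2%), and 5101 of the 5755 calls were kept. List counts are given as deposited, after rescaling and without replicate 1, to be read against the shares of all genes, 33.0% higher and 11.1% lower as deposited, 20.1% and 19.5% after rescaling and 31.8% and 11.2% without replicate 1. Calls made the same way as deposited, rescaled, without replicate 1 and with both changes numbered 3555, of which 2297 were higher and 1258 lower.

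**Figure D2:**
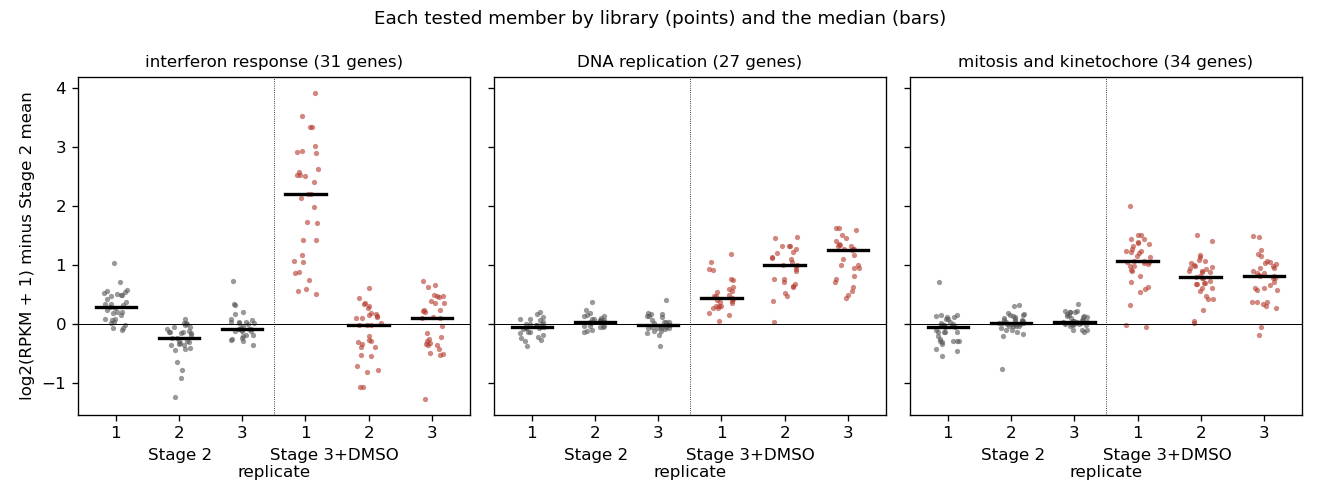
log2(RPKM + 1) of each tested member minus its Stage 2 mean (points), and the median over members (bars), in the 6 libraries. The interferon list stood at a median of 2.20 in Stage 3+DMSO replicate 1 against -0.02 and 0.11 in replicates 2 and 3, DNA replication at 0.45 against 1.00 and 1.25, and mitosis at 1.07 against 0.80 and 0.82.

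Inhibitors of calcification included strong rises and a few falls. Of 11 tested inhibitors and Gla-protein genes 6 rose and 2 fell, with a median log2 fold change of 0.38 beside 0.15 for all tested genes (5 higher and 4 lower after rescaling, 6 higher and 2 lower without replicate 1). MGP, matrix Gla protein, which binds mineral and BMP ligands, had 1552, 1555 and 1658 RPKM at Stage 2 and 3839.8, 4903 and 4392 RPKM in Stage 3+DMSO. Every Stage 3+DMSO library exceeded every Stage 2 library (log2 fold change 1.46, SE 0.08, limma adjusted p = 1.06e-07). ANKH, which exports the pyrophosphate source that blocks mineral growth, had 46.9, 50.3 and 58.05 RPKM at Stage 2 and 70.99, 152 and 119 RPKM in Stage 3+DMSO, without overlap although the Stage 3+DMSO values were widely spread (log2 fold change 1.06, SE 0.20, limma adjusted p = 0.000973). ENPP1, the enzyme that makes extracellular pyrophosphate, was 15.01, 17.6 and 17.4 RPKM at Stage 2 and 27.5, 25.6 and 25.4 RPKM in Stage 3+DMSO (log2 fold change 0.62, limma adjusted p = 9.05e-05). The vitamin K-dependent ligand GAS6 changed by 0.86, and NT5E, the ectonucleotidase that turns AMP into adenosine, by 0.38. In the other direction went GGCX, the carboxylase that activates Gla proteins, with 73.7, 68.2 and 68.6 RPKM at Stage 2 and 51.5, 42.1 and 45.6 RPKM in Stage 3+DMSO. All its Stage 3+DMSO values lay below Stage 2 (log2 fold change -0.59, limma adjusted p = 8.18e-05). TNFRSF11B, which encodes the decoy receptor osteoprotegerin, fell likewise, from 79.9, 93.7 and 98.2 RPKM to 37.8, 54.9 and 49.9 RPKM (log2 fold change -0.93, limma adjusted p = 6.63e-05).

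Of 13 tested genes for osteogenic and valve mesenchyme transcription factors, 4 were higher and 3 lower (3 higher and 4 lower after rescaling, 6 higher and 3 lower without replicate 1). RUNX2, the master regulator of osteoblasts, had 14.4, 14.6 and 14.2 RPKM at Stage 2 and 9.38, 7.57 and 9.70 RPKM in Stage 3+DMSO, a clear separation downwards (log2 fold change -0.65, SE 0.10, limma adjusted p = 0.000195), at the more abundant of 2 gene IDs of that name, and the other ID did not pass. SNAI2, which drives mesenchymal transition, was 94.9, 99.6 and 101 RPKM at Stage 2 and 85.6, 50.4 and 44.2 RPKM in Stage 3+DMSO, with replicate 1 close to Stage 2 and the others lower (log2 fold change -0.76, limma adjusted p = 0.00723). TBX20, a T-box factor of the developing valve, had 13.3, 10.6 and 12.3 RPKM at Stage 2 and 27.1, 22.4 and 23.6 RPKM in Stage 3+DMSO (log2 fold change 0.96, limma adjusted p = 4.56e-05). TBX3, a related factor, was 6.65, 7.19 and 7.58 RPKM at Stage 2 and 14.6, 16.7 and 18.6 RPKM in Stage 3+DMSO (log2 fold change 1.11, limma adjusted p = 2.89e-06), and neither overlapped between groups. Bone matrix and mineralisation had 16 genes listed, of which 9 were expressed enough to test. Of these 2 rose and 2 fell (3 lower after rescaling, 3 higher and 1 lower without replicate 1). IBSP, DMP1, PHEX and MEPE, of bone matrix, did not reach the filter. SPP1, osteopontin, did not pass (log2 fold change 0.48, limma adjusted p = 0.249): its 10.1 RPKM in Stage 3+DMSO replicate 1 was below Stage 2 and its 30.5 and 35.8 RPKM in the others above, and it passed without replicate 1 (log2 fold change 1.02, adjusted p = 3.60e-05). BMP2, the osteogenic ligand, had 2.07, 1.88 and 2.81 RPKM at Stage 2 and 2.49, 7.07 and 5.10 RPKM in Stage 3+DMSO, with replicate 1 inside the Stage 2 range (log2 fold change 0.78, limma adjusted p = 0.0268; adjusted p = 0.0593 after rescaling). PTH1R, the parathyroid hormone receptor, fell by 0.59 on the log2 scale.

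Matrix genes moved in both directions. The small leucine-rich proteoglycans, which regulate collagen fibril assembly, had 7 of 12 tested members lower and 3 higher, a median of -0.48 (2 higher and 8 lower after rescaling, 3 higher and 6 lower without replicate 1). PRELP, which anchors basement membrane to connective tissue, had 1254, 1198 and 1195 RPKM at Stage 2 and 463, 524 and 591 RPKM in Stage 3+DMSO, and DCN, decorin, 673, 679.9 and 738 RPKM at Stage 2 and 385, 337 and 376 RPKM in Stage 3+DMSO. Neither overlapped between groups (log2 fold change -1.21, SE 0.07, limma adjusted p = 2.05e-07; decorin -0.93, SE 0.07). LUM and FMOD, lumican and fibromodulin, fell by 0.69 and 0.67. ECM2 and PODN, of the same family, rose by 0.81 and 0.55. Of 20 genes of large proteoglycans and hyaluronan 10 were higher and 2 lower (7 higher and 4 lower after rescaling, 11 higher and 2 lower without replicate 1), a higher share above the 33.0% of all genes as deposited and a lower share near their 11.1%, while after rescaling the lower share stood near their 19.5%. ACAN, the cartilage proteoglycan aggrecan, had 1.98, 2.31 and 1.80 RPKM at Stage 2 and 6.97, 9.13 and 9.11 RPKM in Stage 3+DMSO (log2 fold change 1.63, SE 0.14, limma adjusted p = 3.57e-06), while VCAN, versican, the proteoglycan of loose valve matrix, fell from 129, 133 and 144 RPKM to 98.01, 77.9 and 90.8 RPKM (log2 fold change -0.60, limma adjusted p = 0.000362). CEMIP, which degrades hyaluronan, was 25.4, 34.8 and 25.99 RPKM at Stage 2 and 69.8, 70.7 and 68.3 RPKM in Stage 3+DMSO, with all Stage 3+DMSO libraries close together and above Stage 2 (log2 fold change 1.26, limma adjusted p = 4.32e-06).

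Of 17 collagens of fibrils and their surface 5 were higher and 7 lower, a median of -0.12 (2 higher and 8 lower after rescaling, 5 higher and 7 lower without replicate 1). The share higher, 29.4%, was near the 33.0% of all genes, and the share lower, 41.2%, was above their 11.1%. COL3A1 and COL1A2, the most abundant, were not called as deposited (adjusted p = 0.416 and 0.059), but without replicate 1 both were lower (-0.28 and -0.26, adjusted p = 0.00556 and 0.00563). COL12A1 and COL5A1, which regulate fibril thickness and spacing, fell by 0.83 and 0.63. COL14A1, another fibril-associated collagen, had 85.9, 85.7 and 97.7 RPKM at Stage 2 and 278, 205 and 184 RPKM in Stage 3+DMSO, higher in every Stage 3+DMSO library (log2 fold change 1.28, limma adjusted p = 6.68e-06). Basement membrane genes went both ways, among 15 members with 6 higher and 6 lower (3 higher and 6 lower after rescaling, 5 higher and 5 lower without replicate 1). Collagen IV chains COL4A1, COL4A2, COL4A5 and COL4A6 fell by 0.46, 0.47, 0.56 and 0.78, while laminin chains LAMB2 and LAMC1 and nidogen NID2 rose by 0.51, 0.51 and 0.38.

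Elastic fibre genes also went both ways. The structural ELN, elastin, had 37.4, 47.1 and 35.9 RPKM at Stage 2 and 95.3, 95.4 and 60.7 RPKM in Stage 3+DMSO, with no overlap (log2 fold change 1.02, SE 0.16, limma adjusted p = 0.00032), and FBLN5 and MFAP2, which assemble elastin on microfibrils, rose by 0.93 and 0.74. LOX, a lysyl oxidase that cross-links collagen and elastin, was 424, 422 and 411 RPKM at Stage 2 and 284, 252 and 266 RPKM in Stage 3+DMSO (log2 fold change -0.65, SE 0.05, limma adjusted p = 1.73e-06), and LOXL4, of its family, and the collagen lysyl hydroxylases PLOD1 and PLOD2 changed by -0.98, -0.64 and -0.63. Of all 20 members 5 rose and 10 fell (4 higher and 11 lower after rescaling, 5 higher and 9 lower without replicate 1).

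Among 18 matricellular proteins, which tune how cells meet the matrix, 5 were higher and 7 lower (5 higher and 8 lower after rescaling, 6 higher and 7 lower without replicate 1). COMP, which cartilage and tendon use to organise collagen, had 1.49, 1.47 and 1.79 RPKM at Stage 2 and 11.3, 13.9 and 15.6 RPKM in Stage 3+DMSO, the widest relative gap among them (log2 fold change 2.49, SE 0.14, limma adjusted p = 1.11e-07). POSTN, periostin, was 266, 385 and 417 RPKM at Stage 2 and 929, 1187 and 1089 RPKM in Stage 3+DMSO. NOV (CCN3), a growth-restraining CCN protein, went the other way, with 668, 669 and 651 RPKM at Stage 2 and 189, 198 and 171 RPKM in Stage 3+DMSO (log2 fold change -1.83, SE 0.08, limma adjusted p = 1.17e-08). THBS1 and TNC, thrombospondin-1 and tenascin-C, fell by 0.61 and 0.40, and THBS2 rose by 0.48. Of 14 cartilage and tendon genes 7 rose and 2 fell (4 higher and 2 lower after rescaling, 6 higher and 2 lower without replicate 1), among them the matrilins MATN2 and MATN4 (1.14 and 1.14) and the tendon factor MKX (0.84). SOX9, the chondrogenic factor, was 25.8, 26.8 and 26.2 RPKM at Stage 2 and 28.8, 28.8 and 34.1 RPKM in Stage 3+DMSO, and its small difference (log2 fold change 0.21, limma adjusted p = 0.0333) was not called after rescaling (adjusted p = 0.646).

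Proteases and their inhibitors were rearranged. TIMP1 and TIMP3 both inhibit metalloproteinases, the first secreted and the second bound to matrix. TIMP1 had 3051, 2775 and 2965 RPKM at Stage 2 and 667, 971 and 1001 RPKM in Stage 3+DMSO, and TIMP3 175, 188 and 203 RPKM at Stage 2 and 523, 621 and 642 RPKM in Stage 3+DMSO. The inhibitors moved in opposite directions, with no overlap between groups (TIMP1 -1.76, SE 0.12; TIMP3 1.65, SE 0.09). MMP2, gelatinase A, and MMP14, the membrane protease that activates it, rose by 0.72 and 1.04, and TIMP2, which takes part in that activation, by 0.58. Of 15 members 5 rose and 3 fell (5 higher and 3 lower after rescaling, 6 higher and 3 lower without replicate 1). Of 12 ADAMTS-family genes 3 were higher and 4 lower (3 higher and 5 lower after rescaling, 4 higher and 4 lower without replicate 1). The aggrecan-cleaving ADAMTS1 and ADAMTS4 changed by 1.32 and -1.21, and ADAMTS5, a further aggrecanase, did not pass (adjusted p = 0.209).

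**Figure D3:**
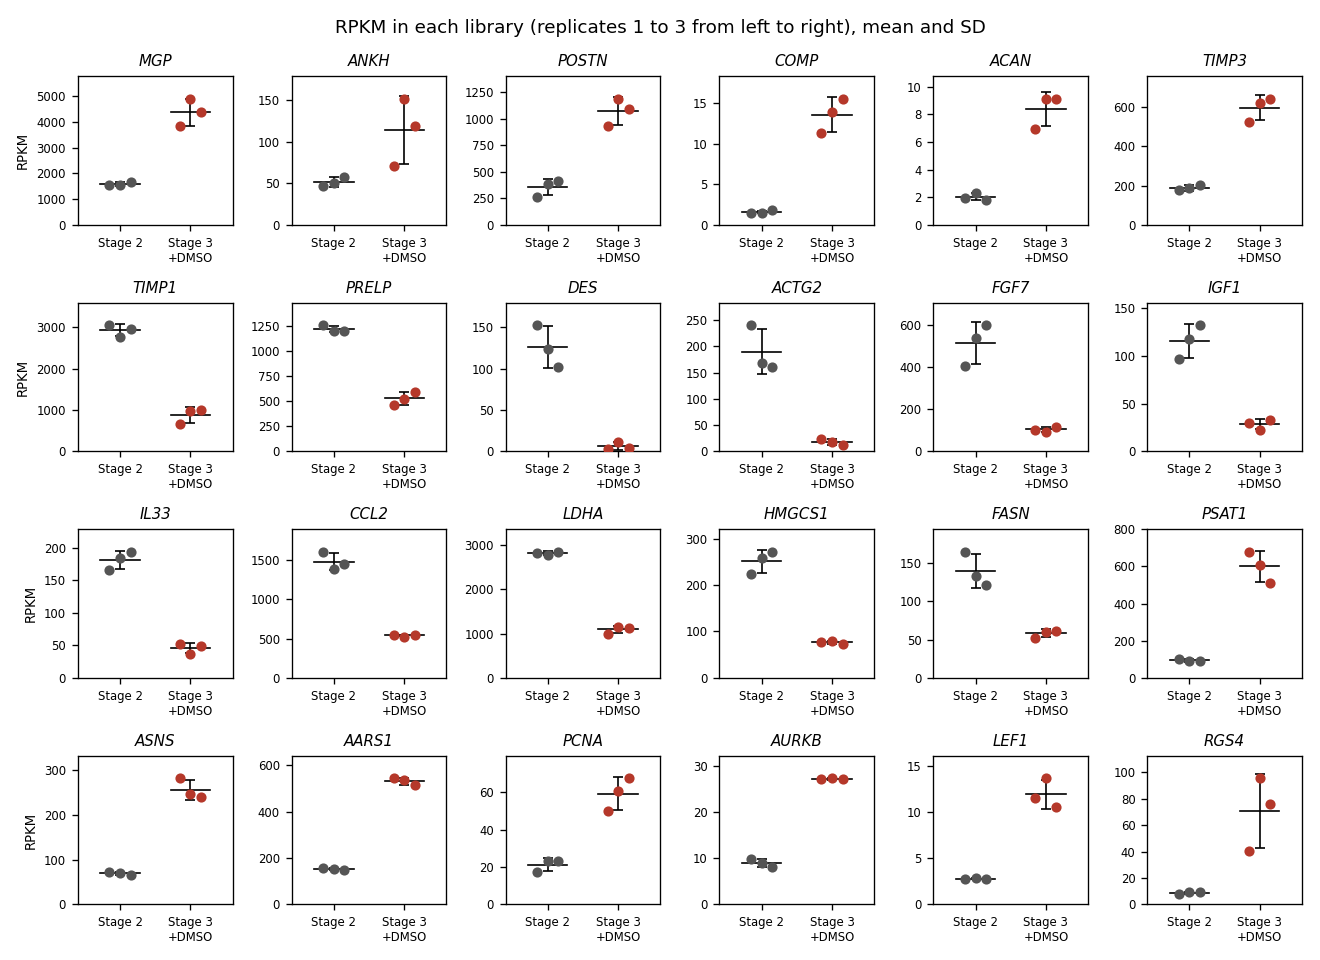
RPKM of 24 genes in each library, with the mean (long bar) and SD (n = 3), on linear axes from 0. Groups do not overlap for any of the genes drawn, some of which were named by a rule that required this. POSTN, for example, went from 266, 385 and 417 to 929, 1187 and 1089 RPKM.

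Most tested contractile genes fell. The smooth muscle list had 13 of 20 tested members lower and 3 higher, a median of -0.56 (3 higher and 14 lower after rescaling, 3 higher and 13 lower without replicate 1). DES, the intermediate filament desmin, had 152, 123 and 102 RPKM at Stage 2 and 2.62, 11.8 and 4.14 RPKM in Stage 3+DMSO. Every Stage 3+DMSO library lay far below Stage 2. The log2 fold change was -4.34 (SE 0.33, adjusted p = 1.03e-06). ACTA2, smooth muscle alpha-actin, stayed among the most abundant transcripts at 14092, 12225 and 11716 RPKM at Stage 2 and 9892, 8014 and 7806 RPKM in Stage 3+DMSO (log2 fold change -0.57, SE 0.11, limma adjusted p = 0.000988). ACTG2, the enteric actin, was 240.2, 169 and 161 RPKM at Stage 2 and 23.4, 17.4 and 11.9 RPKM in Stage 3+DMSO. Actin genes are similar in coding sequence, and some reads may be shared between ACTA2, ACTG2 and ACTA1, which was not tested. CNN1, SMTN and TPM1, which regulate or stabilise actin filaments, fell by 1.13, 1.17 and 0.89. Among the members that rose were FHL1 and SYNM, an adaptor and a filament protein (0.60 and 0.56). Of 32 striated muscle and sarcomere genes 10 passed the filter, and 7 of those fell (8 lower after rescaling, 7 lower without replicate 1). MYOZ2, a Z-disc protein, had 54.9, 65.7 and 84.1 RPKM at Stage 2 and 8.80, 12.8 and 21.7 RPKM in Stage 3+DMSO (log2 fold change -2.23, limma adjusted p = 1.90e-05). MYBPH, a thick-filament protein, was 18.9, 18.5 and 19.1 RPKM at Stage 2 and 4.04, 2.40 and 2.68 RPKM in Stage 3+DMSO (log2 fold change -2.32, limma adjusted p = 3.42e-07). FABP3, the muscle fatty acid carrier, was 745, 717 and 694 RPKM at Stage 2 and 85.1, 141 and 112 RPKM in Stage 3+DMSO, and CRYAB, a small heat shock protein of muscle and lens, 1126, 1018 and 996 RPKM at Stage 2 and 318, 395 and 424 RPKM in Stage 3+DMSO. All 4 were without overlap and called lower, but the rule that named MYOZ2, MYBPH and FABP3 required both, and that for CRYAB a call.

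Targets of SRF and YAP, which respond to actin tension, were split (5 of 19 higher, 5 lower), but after rescaling 7 were lower and the others did not pass, while without replicate 1 5 were higher and 6 lower. ANKRD1, a YAP target of stretched cells, fell by 1.62, and the cytoskeletal actins ACTB and ACTG1 by 0.34 and 0.59. Neither actin was called after quantile normalization (ACTB -0.15, adjusted p = 0.21, and ACTG1 -0.18, adjusted p = 0.0601). CTGF (CCN2), the matrix-inducing YAP target, was 1839.9, 1818 and 1611 RPKM at Stage 2 and 2213, 2135 and 2238 RPKM in Stage 3+DMSO, a rise of 0.32 that was not called after rescaling (adjusted p = 0.0869).

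Growth factor genes included some of the deepest falls. IGF1, a survival and growth ligand, had 96.7, 118 and 132 RPKM at Stage 2 and 29.9, 22.8 and 33.02 RPKM in Stage 3+DMSO (log2 fold change -1.98, SE 0.13, limma adjusted p = 2.65e-07), and IGFBP5, which binds it, 266, 214 and 228 RPKM at Stage 2 and 95.7, 72.98 and 74.6 RPKM in Stage 3+DMSO (log2 fold change -1.53, SE 0.11, limma adjusted p = 8.76e-07). Both were separated from Stage 2 in every library. The scavenging receptor IGF2R and the adaptor IRS1 rose by 1.03 and 0.66. FGF7, a mesenchymal ligand for epithelial cells, was 405, 538 and 601 RPKM at Stage 2 and 104, 94.2 and 115 RPKM in Stage 3+DMSO (log2 fold change -2.27, SE 0.13, limma adjusted p = 1.32e-07). PDGFRA and PDGFRB, the alpha and beta receptors for platelet-derived growth factor, moved apart, -1.12 and 0.71. PDGFRA was 133, 136 and 156 RPKM at Stage 2 and 74.05, 63.2 and 57.99 RPKM in Stage 3+DMSO, and PDGFRB 136, 127 and 127 RPKM at Stage 2 and 199.8, 208 and 235 RPKM in Stage 3+DMSO, neither overlapping. The sproutys SPRY1, SPRY2 and SPRY4, feedback inhibitors that FGF signals induce, rose by 1.20, 0.67 and 0.83. Over the lists, 6 of 13 IGF genes were higher and 4 lower (5 higher and 5 lower after rescaling, 5 higher and 5 lower without replicate 1), and 7 of 18 PDGF and FGF genes were higher and 4 lower (7 higher and 4 lower after rescaling, 7 higher and 4 lower without replicate 1).

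In the BMP pathway 9 of 22 members were higher and 5 lower (6 higher and 6 lower after rescaling, 9 higher and 5 lower without replicate 1). Among extracellular antagonists CHRD, chordin, had 50.9, 45.6 and 41.9 RPKM at Stage 2 and 150.3, 101 and 105 RPKM in Stage 3+DMSO (log2 fold change 1.33, SE 0.13, limma adjusted p = 6.35e-06), and FST, follistatin, 5.74, 3.71 and 4.29 RPKM at Stage 2 and 6.37, 11.2 and 12.9 RPKM in Stage 3+DMSO (log2 fold change 0.97, limma adjusted p = 0.00222). BAMBI, a pseudoreceptor, rose by 0.84. ID1, a direct target gene of BMP signalling, was 245, 253 and 253 RPKM at Stage 2 and 139, 129 and 139.9 RPKM in Stage 3+DMSO, lower in all 3 Stage 3+DMSO libraries (log2 fold change -0.88, SE 0.09, limma adjusted p = 9.65e-06), as were the target and feedback gene SMAD7 (-0.38) and the ligand BMP6 (-0.27). ID2, a related target outside the naming rule and looked up after the values were seen, rose by 0.38. The TGF-beta list had 6 of 17 members higher (3 higher and 1 lower after rescaling, 8 higher without replicate 1), and its 35.3% was near the 33.0% of all genes. The ligands TGFB2 and TGFB3 rose by 0.49 and 0.52.

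Wnt genes were divided (7 of 21 higher, 6 lower, then 6 higher and 8 lower after rescaling, 6 higher and 6 lower without replicate 1). LEF1 and TCF7, related DNA-binding partners of beta-catenin, moved in opposite directions: LEF1 had 2.71, 2.84 and 2.80 RPKM at Stage 2 and 11.5, 13.7 and 10.6 RPKM in Stage 3+DMSO and TCF7 7.67, 8.09 and 8.25 RPKM at Stage 2 and 3.41, 4.27 and 4.08 RPKM in Stage 3+DMSO. Both differences separated all libraries (log2 fold change 1.76, SE 0.11, limma adjusted p = 2.09e-07; TCF7 -0.88, SE 0.10). AXIN2, a feedback target, fell by 0.56, WNT9A and WNT5B, ligands, rose by 1.12 and 0.68, and SFRP2, a secreted Wnt binder, was 794, 821 and 847 RPKM at Stage 2 and 514, 357 and 482 RPKM in Stage 3+DMSO (log2 fold change -0.88, limma adjusted p = 3.29e-05). Notch genes had 4 of 11 higher and 1 lower (2 higher and 2 lower after rescaling, 3 higher and 1 lower without replicate 1), shares near those of all genes. The ligand JAG1 and the target HES1 rose by 0.65 and 0.58. Regulators of G-protein signalling, which shorten the signal of G-protein-coupled receptors, included RGS4, at 7.66, 9.37 and 9.29 RPKM at Stage 2 and 40.4, 95.5 and 75.9 RPKM in Stage 3+DMSO (log2 fold change 2.79, SE 0.25, limma adjusted p = 3.77e-06), and RGS5, a pericyte gene, at 0.299, 0.225 and 0.197 RPKM at Stage 2 and 3.08, 3.50 and 3.24 RPKM in Stage 3+DMSO (log2 fold change 1.78, limma adjusted p = 9.85e-07). The summed pericyte markers were lower in every Stage 3+DMSO library than in any at Stage 2. RGS2, which dampens vasoconstrictor signals, was lower (152, 173 and 174 RPKM at Stage 2 and 37.04, 95.2 and 122 RPKM in Stage 3+DMSO; log2 fold change -1.12, limma adjusted p = 0.0102) with wide spread in Stage 3+DMSO, and was not called in a fit of the 6 libraries alone (adjusted p = 0.051).

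Early-response genes were mixed. Of 22 AP-1, EGF-ligand and immediate early genes 10 were higher and 4 lower (7 higher and 5 lower after rescaling, 11 higher and 4 lower without replicate 1), 45.5% and 18.2% beside 33.0% and 11.1% of all genes. ATF3, a stress-induced AP-1 factor, had 14.02, 13.2 and 15.99 RPKM at Stage 2 and 25.8, 45.8 and 59.5 RPKM in Stage 3+DMSO (log2 fold change 1.46, SE 0.21, limma adjusted p = 0.000156). NR4A2, an orphan nuclear receptor, was 22.4, 62.8 and 60.5 RPKM in the Stage 3+DMSO libraries, with replicate 1 inside the Stage 2 range of 21.9, 25.3 and 24.7 RPKM, and was not called after rescaling (adjusted p = 0.0244 as deposited and 0.0627 rescaled). FOSL2 and JUNB fell by 0.53 and 0.38, JUNB without a call in the 6 libraries alone (adjusted p = 0.0514), and FOS did not pass (adjusted p = 0.932).

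Several chemokines and cytokines fell. CCL2, which recruits monocytes, had 1606, 1387 and 1451 RPKM at Stage 2 and 549, 526 and 545 RPKM in Stage 3+DMSO, and IL33, an alarmin of stromal cells, 166, 184 and 194 RPKM at Stage 2 and 52.7, 37.2 and 48.3 RPKM in Stage 3+DMSO. No library of one group reached the other (CCL2 -1.45, SE 0.08; IL33 -1.97, SE 0.13). IL6 was 60.6, 47.8 and 50.2 RPKM at Stage 2 and 29.6, 18.3 and 19.4 RPKM in Stage 3+DMSO, with the same separation (log2 fold change -1.23, SE 0.15, limma adjusted p = 3.82e-05). CX3CL1 and IL34, ligands of monocyte receptors, rose by 1.01 and 0.70. CXCL8 stayed low and did not pass (adjusted p = 0.17). Of 18 tested members 3 rose and 5 fell (3 higher and 6 lower after rescaling, 3 higher and 5 lower without replicate 1). The NF-kB feedback genes NFKBIZ and BCL3, atypical inhibitor-type cofactors, fell by 1.26 and 0.94, while NFKBIA, the classical inhibitor, and VCAM1, the adhesion molecule, rose by 0.68 and 0.75. Of 17 NF-kB genes 5 were higher and 3 lower (2 higher and 4 lower after rescaling, 5 higher and 2 lower without replicate 1), 29.4% higher against 33.0% of all genes. PTGS2, cyclooxygenase-2, had 104, 113 and 111 RPKM at Stage 2 and 61.4, 54.6 and 55.6 RPKM in Stage 3+DMSO, and PTGES, the synthase downstream, 94.5, 86.1 and 90.6 RPKM at Stage 2 and 44.2, 50.2 and 48.4 RPKM in Stage 3+DMSO (log2 fold changes -0.93 and -0.91). That list had 3 of 10 higher and 4 lower as deposited, but after rescaling 6 were lower and the others did not pass, while without replicate 1 3 were higher and 4 lower. In the complement and acute-phase list (6 of 18 higher, 4 lower, then 6 higher and 5 lower after rescaling, 5 higher and 5 lower without replicate 1) LCN2, lipocalin-2, rose to 72.7, 92.6 and 106 RPKM from 37.5, 43.9 and 35.6 RPKM, and PTX3, pentraxin-3, fell to 45.4, 66.5 and 67.03 RPKM from 110.3, 97.01 and 90.9 RPKM.

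Carbohydrate and oxygen-response genes fell together. Of 19 tested glycolysis genes 16 were lower and 1 higher, a median of -0.80 (1 higher and 18 lower after rescaling, 1 higher and 14 lower without replicate 1). LDHA, which makes lactate from pyruvate, had 2819, 2764 and 2843 RPKM at Stage 2 and 998, 1151 and 1128 RPKM in Stage 3+DMSO (log2 fold change -1.36, SE 0.06, limma adjusted p = 2.43e-08). ALDOC, an aldolase, was 348, 310.2 and 305 RPKM at Stage 2 and 72.1, 73.1 and 85.8 RPKM in Stage 3+DMSO (log2 fold change -2.05, SE 0.08, limma adjusted p = 5.97e-09), and the lactate exporter SLC16A3 254, 228 and 196 RPKM at Stage 2 and 76.2, 108 and 114 RPKM in Stage 3+DMSO. None of the 3 overlapped. LDHB, the lactate dehydrogenase that favours pyruvate, was the exception, at 267, 278 and 290.0 RPKM at Stage 2 and 415, 423 and 347 RPKM in Stage 3+DMSO (log2 fold change 0.50, limma adjusted p = 0.000193). The hypoxia-response list, which shares no member with the glycolysis list, had 16 of 23 lower and 3 higher (2 higher and 17 lower after rescaling, 3 higher and 15 lower without replicate 1). VEGFA, the angiogenic ligand, had 377, 320.4 and 272 RPKM at Stage 2 and 139.6, 127 and 152 RPKM in Stage 3+DMSO (log2 fold change -1.20, limma adjusted p = 3.94e-06). BNIP3, a mitophagy receptor, was 748, 625 and 549 RPKM at Stage 2 and 210.4, 241 and 238 RPKM in Stage 3+DMSO (log2 fold change -1.47, limma adjusted p = 2.80e-07). Neither overlapped between groups. PDK1, a kinase that inhibits pyruvate dehydrogenase, was 92.3, 89.3 and 93.4 RPKM at Stage 2 and 45.4, 45.4 and 46.4 RPKM in Stage 3+DMSO, with little spread in either group (log2 fold change -0.99, limma adjusted p = 3.50e-07). NDUFA4L2, a hypoxia-induced mitochondrial protein given by 2 gene IDs, was 93.4, 75.3 and 90.4 RPKM at Stage 2 and 11.03, 9.77 and 12.1 RPKM in Stage 3+DMSO at the more abundant (log2 fold change -2.87, SE 0.17, limma adjusted p = 1.39e-07). HIF1A, the oxygen-sensing factor controlled mainly through its protein, did not pass (adjusted p = 0.244; lower after rescaling, -0.32, adjusted p = 0.0134), and EPAS1, its HIF-2 relative, rose by 1.00.

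Genes for the TCA cycle and respiratory chain changed little as deposited. Of 19 TCA genes 2 were higher and 1 lower (median 0.03), and of 29 nuclear-encoded respiratory genes 5 and 2 (median 0.03). After rescaling the counts turned to 1 and 7, and 1 and 9. Without replicate 1, 2 TCA genes were higher and the others did not pass, and 7 respiratory genes were higher and 1 lower. Of 13 mitochondrially encoded genes 1 was higher and 3 lower (1 higher and 8 lower after rescaling, 1 higher and 3 lower without replicate 1). ND5 was 902, 1292 and 1428 RPKM at Stage 2 and 771, 627 and 709 RPKM in Stage 3+DMSO (log2 fold change -0.76, limma adjusted p = 0.00157), and CYTB 412, 487 and 535 RPKM at Stage 2 and 746, 665 and 683 RPKM in Stage 3+DMSO (log2 fold change 0.55, limma adjusted p = 0.000688).

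Genes of lipid synthesis fell. In cholesterol synthesis 18 of 19 enzymes were lower and 1 higher, a median of -0.76 (1 higher and 18 lower after rescaling, 1 higher and 18 lower without replicate 1). HMGCS1, the first committed enzyme, had 223, 258 and 272 RPKM at Stage 2 and 77.6, 79.98 and 73.7 RPKM in Stage 3+DMSO (log2 fold change -1.69, SE 0.08, limma adjusted p = 3.28e-08). IDI1, which makes the isoprenoid unit, was 432, 468 and 474 RPKM at Stage 2 and 161, 185 and 192 RPKM in Stage 3+DMSO (log2 fold change -1.35, limma adjusted p = 3.30e-07). Both enzymes were lower in each Stage 3+DMSO library than in any Stage 2 library. PMVK, phosphomevalonate kinase, was the exception, up by 0.73. The fatty acid list had 9 of 13 members lower, and the others did not pass (10 lower after rescaling and 8 without replicate 1). FASN, fatty acid synthase, was 165, 133 and 122 RPKM at Stage 2 and 52.1, 60.6 and 61.6 RPKM in Stage 3+DMSO (log2 fold change -1.24, SE 0.11, limma adjusted p = 2.81e-06). ACLY, which makes cytosolic acetyl-CoA, and ACSS2, which makes it from acetate, fell by 1.03 and 1.22, and SCD, the desaturase, had 276, 259.9 and 249 RPKM at Stage 2 and 126, 138 and 133 RPKM in Stage 3+DMSO (log2 fold change -0.98, limma adjusted p = 3.30e-07). In the control of sterol levels INSIG1, the sterol-sensing retention protein, fell by 0.94. SCAP, which escorts the sterol-sensing transcription factors, rose by 0.90, LIPA, the lysosomal cholesterol ester hydrolase, by 1.37 and ABCA1, the cholesterol exporter, by 0.66. Among 14 oxidation and storage genes 5 were higher and 2 lower (3 higher and 3 lower after rescaling, 5 higher and 2 lower without replicate 1). CPT1A, the gate for fatty acid entry to mitochondria, rose by 0.77.

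**Figure D4:**
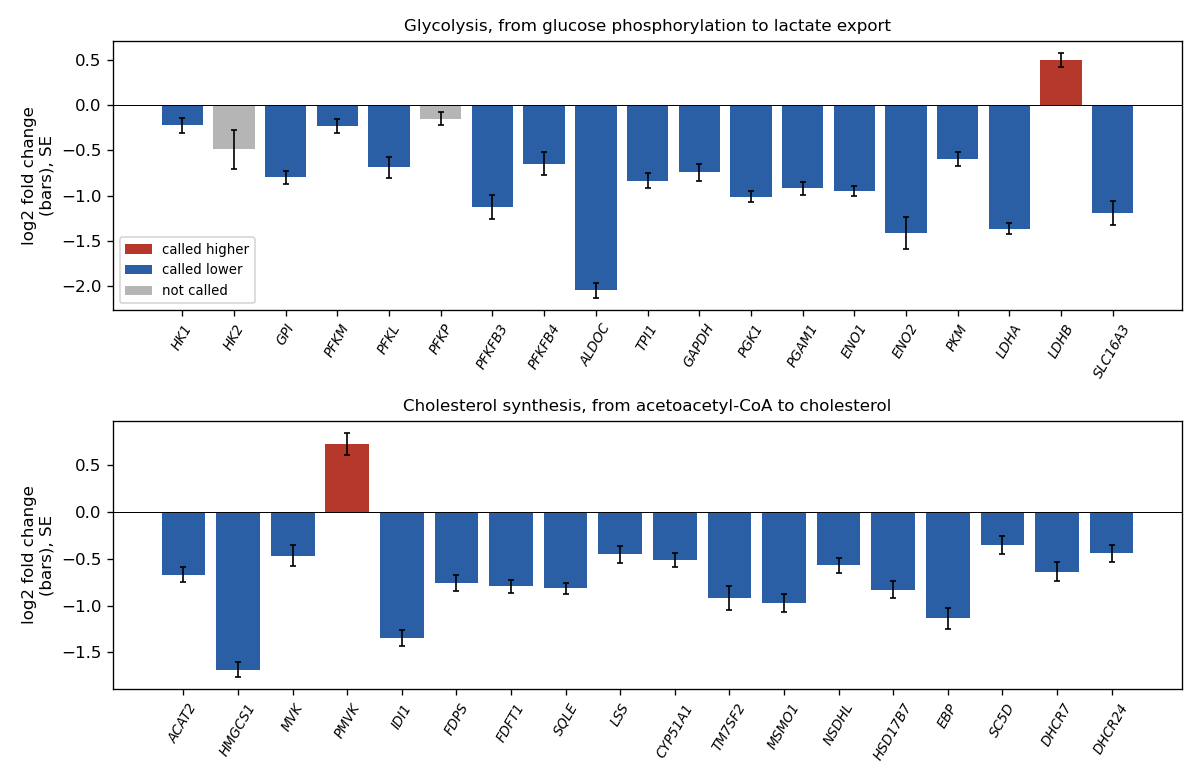
log2 fold changes (bars, with SE) of the tested genes of glycolysis and of most tested genes of cholesterol synthesis in the order of the pathway, on the log2(RPKM + 1) scale as deposited. In glycolysis 16 of 19 were called lower with LDHB higher, and every cholesterol synthesis gene drawn was called lower except PMVK, which was higher.

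Genes of the integrated stress response rose, the programme that runs through translation factor eIF2 and the transcription factor ATF4. In its list 20 of 23 tested members were higher, a median of 1.06, and the other 3 did not pass (18 higher after rescaling and 19 without replicate 1). Some members, PSAT1 and ASNS among them, also stand in the lists of amino acid supply. ATF4 itself had 572, 525 and 513 RPKM at Stage 2 and 850.3, 686 and 736 RPKM in Stage 3+DMSO (log2 fold change 0.49, SE 0.07, limma adjusted p = 0.000201). ATF5, a downstream factor, was 13.000, 10.8 and 7.28 RPKM at Stage 2 and 85.1, 54.4 and 49.2 RPKM in Stage 3+DMSO (log2 fold change 2.48, SE 0.21, limma adjusted p = 2.24e-06), and TRIB3, an ATF4-induced brake, 18.2, 17.2 and 16.97 RPKM at Stage 2 and 81.9, 53.7 and 49.97 RPKM in Stage 3+DMSO. The Stage 3+DMSO libraries were above all Stage 2 libraries for each, with replicate 1 the highest. CHAC1, which degrades glutathione, was 24.1, 18.1 and 15.5 RPKM at Stage 2 and 83.9, 39.7 and 39.3 RPKM in Stage 3+DMSO. SESN2, a leucine-sensing stress protein given by 2 gene IDs, rose by 2.27, and CEBPB did not pass (adjusted p = 0.716).

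Genes of serine synthesis rose. PHGDH, PSAT1 and PSPH run in that order from a glycolytic intermediate to serine. PHGDH had 108, 88.9 and 74.8 RPKM at Stage 2 and 305, 248 and 222 RPKM in Stage 3+DMSO. PSAT1 was 103, 91.002 and 89.5 RPKM at Stage 2 and 679, 609 and 511 RPKM in Stage 3+DMSO, and PSPH 28.4, 24.6 and 25.8 RPKM at Stage 2 and 85.8, 93.2 and 75.4 RPKM in Stage 3+DMSO. Groups were apart for all 3 (log2 fold change 2.65, SE 0.09, limma adjusted p = 4.37e-09; PHGDH 1.51 and PSPH 1.65). The mitochondrial one-carbon enzymes MTHFD1L, ALDH1L2 and MTHFD2 rose by 1.49, 1.36 and 0.99, but SHMT2, which feeds them, was lower, at 452, 429 and 429 RPKM at Stage 2 and 308, 311 and 305 RPKM in Stage 3+DMSO (log2 fold change -0.50, SE 0.05, limma adjusted p = 1.16e-05). Over that list 9 of 13 were higher and 1 lower (7 higher and 1 lower after rescaling, 9 higher and 1 lower without replicate 1). ASNS, asparagine synthetase, was 73.5, 69.3 and 66.2 RPKM at Stage 2 and 282, 246 and 239 RPKM in Stage 3+DMSO (log2 fold change 1.86, SE 0.07, limma adjusted p = 5.46e-09), and CTH, which makes cysteine, 2.71, 2.95 and 2.76 RPKM at Stage 2 and 10.1, 11.5 and 9.44 RPKM in Stage 3+DMSO. ALDH18A1, the first enzyme of proline synthesis, fell by 0.51 (9 of 13 higher and 2 lower in that list, then 7 higher and 2 lower after rescaling, 8 higher and 2 lower without replicate 1).

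Most tRNA-charging enzymes rose, and amino acid transporters went both ways. Of 16 amino acid transporters 9 were higher and 4 lower (7 higher and 4 lower after rescaling, 7 higher and 3 lower without replicate 1), 56.2% and 25.0% beside 33.0% and 11.1% of all genes. SLC1A4, a carrier of serine and alanine given by 2 gene IDs, had 12.8, 12.1 and 12.5 RPKM at Stage 2 and 79.3, 64.999 and 61.1 RPKM in Stage 3+DMSO (log2 fold change 2.36, SE 0.09, limma adjusted p = 5.49e-09), and SLC3A2, the shared heavy chain of several carriers, 87.5, 88.01 and 79.01 RPKM at Stage 2 and 263, 257 and 273 RPKM in Stage 3+DMSO. SLC6A6, the taurine carrier, was among the deepest falls of all genes, at 20.6, 16.9 and 17.6 RPKM at Stage 2 and 1.96, 2.70 and 3.31 RPKM in Stage 3+DMSO (log2 fold change -2.42, SE 0.14, limma adjusted p = 1.39e-07). Cytosolic aminoacyl-tRNA synthetases load amino acids onto tRNA, and 15 of 18 rose and 1 fell (13 higher and 1 lower after rescaling, 14 higher and 1 lower without replicate 1). AARS1, for alanine, had 156, 153 and 149.8 RPKM at Stage 2 and 544, 536 and 513 RPKM in Stage 3+DMSO (log2 fold change 1.79, SE 0.05, limma adjusted p = 4.44e-10), and WARS, for tryptophan and also interferon-inducible, 154, 138 and 132 RPKM at Stage 2 and 622, 572 and 517 RPKM in Stage 3+DMSO. No Stage 3+DMSO library of either came near Stage 2, and for WARS the values without replicate 1 were as far from Stage 2 (1.94 against 2.00). DARS, for aspartate, fell by 0.44. In the endoplasmic reticulum list 11 of 23 were higher and 1 lower as deposited (7 higher and 4 lower after rescaling, 13 higher and 1 lower without replicate 1). HSPA5, the chaperone BiP, was 753, 723 and 780.0 RPKM at Stage 2 and 1249.6, 1295 and 1193 RPKM in Stage 3+DMSO (log2 fold change 0.73, limma adjusted p = 6.99e-07), ERN1, the sensor IRE1, rose by 0.91, and SEC61B, a translocon subunit, fell by 0.38.

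Most genes of DNA replication and mitosis rose. Of 27 DNA replication genes 26 rose, a median of 0.94, and POLE2 alone did not pass (23 higher after rescaling, 26 higher without replicate 1). PCNA, the sliding clamp, had 17.3, 23.4 and 23.3 RPKM at Stage 2 and 49.7, 60.6 and 67.5 RPKM in Stage 3+DMSO (log2 fold change 1.43, SE 0.13, limma adjusted p = 3.08e-06). MCM2, of the replicative helicase, was 10.7, 10.4 and 10.8 RPKM at Stage 2 and 16.6, 27.2 and 30.95 RPKM in Stage 3+DMSO, and CDC45, which activates it, 3.92, 4.88 and 5.50 RPKM at Stage 2 and 10.9, 13.4 and 12.8 RPKM in Stage 3+DMSO. Stage 3+DMSO replicate 1 was the lowest of its group for all 3 and still above Stage 2. The list summed to 306, 345 and 332 RPKM at Stage 2 and 481, 628 and 678 RPKM in Stage 3+DMSO. Mitosis and kinetochore genes were ordered otherwise, with sums of 436, 446 and 459 RPKM and 893, 761 and 741 RPKM, replicate 1 being the highest. Of 34 members 31 rose and the other 3, PTTG1, CDC20 and CKS2, did not pass (27 higher after rescaling and 28 without replicate 1). AURKB, a mitotic kinase, had 9.84, 8.93 and 8.10 RPKM at Stage 2 and 27.2, 27.4 and 27.1 RPKM in Stage 3+DMSO (log2 fold change 1.51, SE 0.10, limma adjusted p = 3.56e-07), and TOP2A, the topoisomerase that untangles chromosomes, 8.73, 9.69 and 10.8 RPKM at Stage 2 and 41.7, 27.6 and 28.8 RPKM in Stage 3+DMSO. MKI67, a marker of cycling cells, was 4.92, 4.29 and 4.09 RPKM at Stage 2 and 11.1, 9.15 and 8.93 RPKM in Stage 3+DMSO (log2 fold change 0.98, limma adjusted p = 4.63e-05).

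E2F1, an activator of S phase, had 9.54, 10.8 and 9.59 RPKM at Stage 2 and 15.6, 25.5 and 25.1 RPKM in Stage 3+DMSO (log2 fold change 1.04, limma adjusted p = 0.000286). E2F8, a repressor that E2F1 induces, was 2.61, 2.71 and 2.97 RPKM at Stage 2 and 6.65, 8.46 and 8.21 RPKM in Stage 3+DMSO (log2 fold change 1.22, limma adjusted p = 5.42e-06), and E2F7, its relative, rose by 1.16. All Stage 3+DMSO values of these factors lay above Stage 2. CCND1, the cyclin that starts the cycle, did not pass, at 181, 179 and 163 RPKM at Stage 2 and 107, 150.3 and 174 RPKM in Stage 3+DMSO (log2 fold change -0.31, limma adjusted p = 0.137). Its list of cyclins, kinases and E2Fs had 11 of 21 higher and 1 lower, with 5 higher and 4 lower after rescaling, 10 higher and 2 lower without replicate 1. Brakes of the cycle had 8 of 13 higher and 2 lower (7 higher and 4 lower after rescaling, 8 higher and 3 lower without replicate 1), such as CDKN2C, an inhibitor of CDK4 and CDK6 (0.69), and KLF4, a quiescence and differentiation factor, with 24.7, 29.7 and 27.8 RPKM at Stage 2 and 51.5, 64.6 and 56.6 RPKM in Stage 3+DMSO (log2 fold change 1.04, limma adjusted p = 2.19e-06). BTG2, an antiproliferative gene, fell by 0.77. DNA repair genes had 13 of 19 higher, and the others did not pass (13 higher and 2 lower after rescaling, 13 higher without replicate 1). FANCD2, of crosslink repair, was 5.63, 5.98 and 5.14 RPKM at Stage 2 and 13.1, 11.3 and 14.6 RPKM in Stage 3+DMSO (log2 fold change 1.08, limma adjusted p = 1.90e-05), and UNG, which removes uracil, 6.94, 5.99 and 7.14 RPKM at Stage 2 and 13.1, 17.4 and 17.7 RPKM in Stage 3+DMSO (log2 fold change 1.14, limma adjusted p = 2.35e-05). Targets of p53 had 6 of 18 higher and 2 lower (4 higher and 4 lower after rescaling, 6 higher and 2 lower without replicate 1), about the shares of all genes. MDM2, its inhibitor, changed by 0.30, a call lost on rescaling (adjusted p = 0.234), and DDB2, of ultraviolet repair, fell by 0.77.

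Ribosome assembly and lysosome genes rose by smaller amounts. Of 26 nucleolar genes 22 were higher and 1 lower, a median of 0.48 (17 higher and 1 lower after rescaling, 23 higher without replicate 1). DKC1, which modifies ribosomal RNA, had 18.9, 19.4 and 16.5 RPKM at Stage 2 and 35.8, 43.2 and 39.7 RPKM in Stage 3+DMSO (log2 fold change 1.07, SE 0.09, limma adjusted p = 1.74e-06), and POLR1A, the largest subunit of RNA polymerase I, 9.28, 8.02 and 7.75 RPKM at Stage 2 and 13.2, 13.6 and 15.1 RPKM in Stage 3+DMSO. The 40 ribosomal protein genes themselves had a median of -0.04, with 3 higher and 1 lower as deposited and after rescaling 20 lower, with the others not passing. Without replicate 1, 1 was higher and 1 lower. Lysosome genes had 23 of 31 higher (19 higher after rescaling, 23 higher without replicate 1), a median of 0.48, and the others did not pass. ASAH1, acid ceramidase, was 92.3, 124 and 124 RPKM at Stage 2 and 306, 303 and 297 RPKM in Stage 3+DMSO (log2 fold change 1.42, SE 0.10, limma adjusted p = 5.22e-07). CTSK, a collagen-cleaving cathepsin known from osteoclasts, was 1226, 1269 and 1314 RPKM at Stage 2 and 1949, 2442 and 2811 RPKM in Stage 3+DMSO (log2 fold change 0.90, SE 0.11, limma adjusted p = 3.57e-05), while the osteoclast genes CALCR, TNFRSF11A and OCSTAMP were at 0 in all 6 libraries. NFATC1, the other osteoclast marker above the filter, did not pass as deposited (adjusted p = 0.222) and was lower after rescaling (-0.36, adjusted p = 0.0389). Nuclear transport had 17 of 29 members higher as deposited (8 higher and 3 lower after rescaling, 13 higher without replicate 1), and the export receptor XPO1 did not pass (adjusted p = 0.474).

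**Figure D5:**
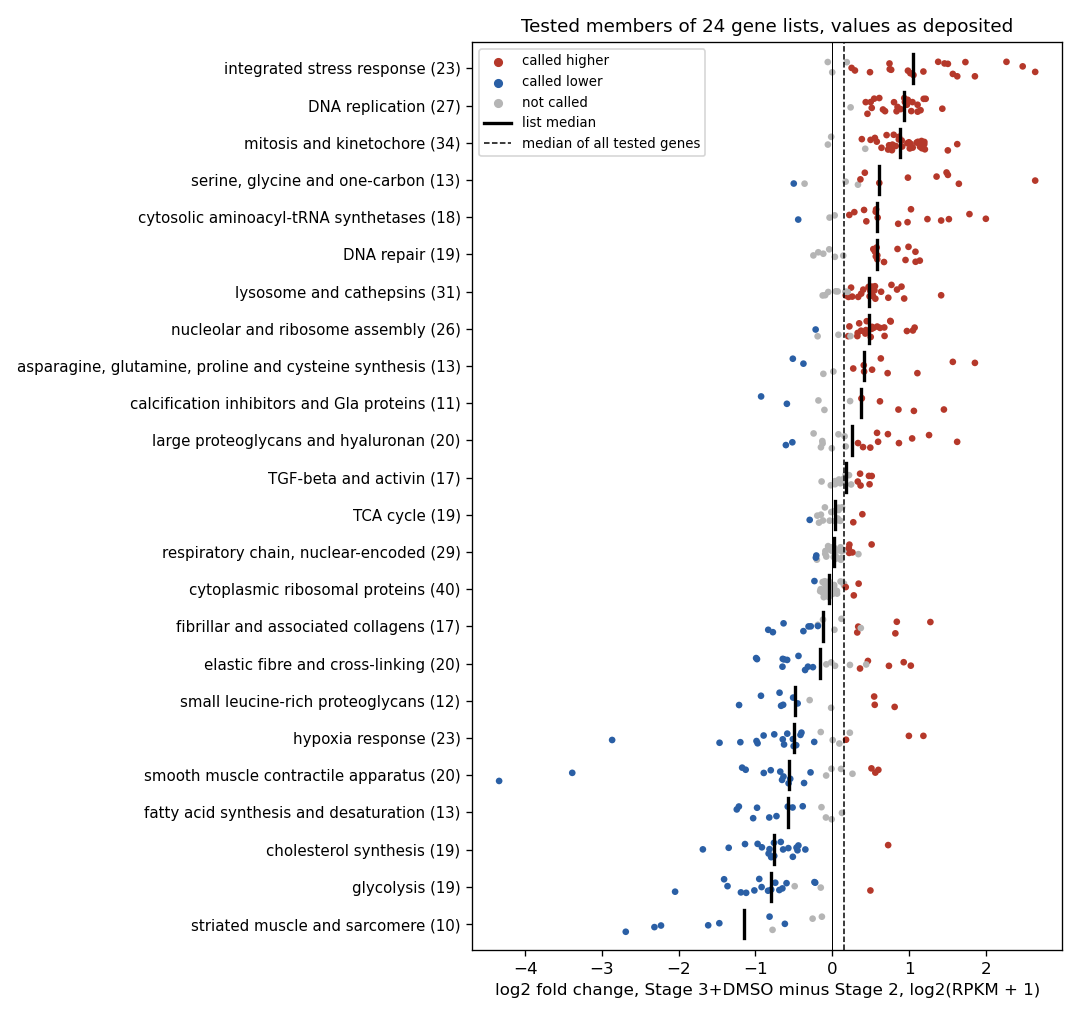
log2 fold changes of every tested member of 24 gene lists (points, coloured by call), with the list median (bar) and the median of all tested genes (dashed line, 0.15), as deposited. The number after each name counts its tested members. Medians ran from -1.14 for striated muscle genes to 1.06 for the integrated stress response.

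Beyond these lists, the largest rise was that of FAM180A, a gene of unclear function, at 6.70, 8.24 and 6.30 RPKM at Stage 2 and 56.5, 62.6 and 74.9 RPKM in Stage 3+DMSO (log2 fold change 3.02, SE 0.11, limma adjusted p = 4.46e-09). ABCB1, the drug efflux pump, was 9.80, 8.87 and 11.3 RPKM at Stage 2 and 75.7, 49.4 and 49.2 RPKM in Stage 3+DMSO (log2 fold change 2.40, SE 0.14, limma adjusted p = 1.35e-07), with replicate 1 the highest. MAOB, a monoamine oxidase of the mitochondrial outer membrane, had 2.02, 2.22 and 2.68 RPKM at Stage 2 and 11.8, 12.4 and 17.9 RPKM in Stage 3+DMSO, and RIMKLB, a ligase that makes N-acetylaspartylglutamate, 27.6, 23.3 and 24.6 RPKM at Stage 2 and 127, 119 and 131 RPKM in Stage 3+DMSO. AKNA, FAM13B and GKN3 rose by 2.09, 2.35 and 2.52. The snoRNAs SNORA46 and SNORD41 also rank among the 15 largest rises, and short RNAs are poorly captured by a poly(A) protocol. PLXDC1, a plexin-domain membrane protein, rose from 21.8, 30.6 and 33.1 RPKM to 121, 135 and 85.5 RPKM. On the other side, APLN, the vasoactive peptide apelin, had 37.5, 35.997 and 30.8 RPKM at Stage 2 and 7.55, 5.09 and 13.1 RPKM in Stage 3+DMSO (log2 fold change -1.98, SE 0.26, limma adjusted p = 7.01e-05). GALNT15, which starts O-linked sugars on proteins, was 17.1, 16.2 and 18.3 RPKM at Stage 2 and 2.29, 2.78 and 3.25 RPKM in Stage 3+DMSO (log2 fold change -2.28, limma adjusted p = 3.28e-08), and CADM4, an adhesion molecule, 14.4, 11.8 and 12.8 RPKM at Stage 2 and 1.83, 2.20 and 2.48 RPKM in Stage 3+DMSO. TMEM255A and DHRS9, a membrane protein and a retinol dehydrogenase, fell by 2.25 and 2.05, and GZMA, granzyme A, known from cytotoxic lymphocytes, by 2.04 at the more abundant of 2 gene IDs, with CD3D and PTPRC at 0. TXNIP, a glucose-responsive inhibitor of thioredoxin, was 18.8, 30.6 and 38.2 RPKM at Stage 2 and 41.7, 12.7 and 7.47 RPKM in Stage 3+DMSO and did not pass (adjusted p = 0.173). It passed without replicate 1 (log2 fold change -1.43, adjusted p = 0.000924).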

How the data were processed

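The authors deposited RPKM values per gene and per exon for 12 libraries of polyadenylated RNA, 3 in each of 4 groups, made from 500 ng of total RNA with a stranded kit, per the labels' protocols. The submitters' processing notes name TopHat2 2.1.0, with no role. Which counter, build and annotation made the values is not stated in the sources used here, nor is the use of strand, so overlapping and antisense genes cannot be told apart. Whole reads were recovered from the steps of the RPKM values within 0.0001 of a whole number and were used to give depth and for a voom alternative. Each column of the gene table matched 1 library by name.

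log2(RPKM + 1) was fitted with limma 3.58.1 in R 4.3.3 over all 12 libraries with 1 mean per group and a trend in the variance, since the groups share 1 estimate of spread. Genes with at least 1 RPKM in at least 3 of the 12 libraries entered, and p-values were adjusted by Benjamini-Hochberg over all of them with a threshold of 0.05. Values in log2 are therefore fold changes of RPKM + 1 and understate the change of low genes. The fit was also run on simulated reads with few changed genes, no shift of the median and no outlying library. These settings differ from the data, so that run does not show how the fit performs here. Tables and plots used python 3.11.15, pandas 2.3.3, numpy 2.4.6, scipy 1.17.1 and matplotlib 3.10.9.

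The comparison, the gene lists and the genes singled out were chosen with earlier results of these data known, so counts over a list are descriptions. Named genes were the up to 6 called members with the largest change in each direction of each list, a fixed panel, the 15 largest rises and 15 largest falls, and the 10 genes that moved most without Stage 3+DMSO replicate 1. The largest rises and falls were taken only from called genes whose groups did not overlap and reached a mean of 5 RPKM in either group. For these genes a call and the lack of overlap were therefore set by the rule. Gene IDs were paired with symbols through the deposited names and an ID table. Where 2 IDs carried a symbol, the more abundant was used, and ABCA1, ADAMTS1, B2M, DHRS9, ECM2, FOSL2, GZMA, NDUFA4L2, PDGFRA, PDGFRB, SESN2 and SLC1A4 were called the same way at both. Alternatives were median-ratio and quantile scaling, other pseudocounts and filters, the 6 libraries alone, a replicate block, voom and leaving out each library. Sequences and coordinates were not used here, and some list members that were counted are not reported here by name.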

Additional observations from a re-analysis of the deposited data

How the results depend on the processing

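As deposited 5755 genes were called, 4309 higher and 1446 lower, and the total stayed within 1.5 times of that under all 16 alternatives while the split did not. Higher and lower calls numbered 2625 and 2543 after median-ratio rescaling, 2530 and 2534 after quantile normalization, and 2549 and 2529 with rescaling and Stage 3+DMSO replicate 1 left out, and both scalings remove the shift of the median by construction. Leaving out each library in turn gave 4938 to 5608 calls, 3686 to 4153 of them higher and 1166 to 1490 lower. The fit of the 6 libraries alone, which takes no spread from the other groups, gave the fewest calls. These were 4717, with 3567 higher and 1150 lower. Deviations from the group means correlated at -0.022, 0.013 and -0.071 between same-numbered libraries, and at -0.039 to 0.064 between differently numbered ones. These values show no pairing by number, but they cannot exclude a shared animal or batch. The replicate block gave 5641 calls, 4243 higher and 1398 lower, with the calls of all 215 genes given here unchanged.

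Of those 215 genes 193 kept their call or lack of one under all alternatives that tested them, and no called gene changed sign. Without 1 library, limma adjusted p-values crossed the threshold as follows. BMP2 rose to 0.0655, 0.0832, 0.119 and 0.0797 without Stage 2 replicates 1 and 2 or Stage 3+DMSO replicates 2 and 3. NR4A2 rose to 0.0667, 0.108 and 0.106 without Stage 2 replicate 1 or Stage 3+DMSO replicates 2 and 3. SOX9 rose to 0.0727, 0.0582, 0.0669 and 0.148 without each Stage 2 replicate or Stage 3+DMSO replicate 3, MDM2 to 0.077 and 0.0809 without Stage 2 replicate 1 or Stage 3+DMSO replicate 3, and AXIN2 to 0.0769, 0.0634, 0.107 and 0.0562 without replicates 2 and 3 of either stage. ADAMTS5 fell to 0.0393 and CCND1 to 0.0368 without Stage 3+DMSO replicate 3, and HIF1A to 0.012 and XPO1 to 0.0451 without Stage 2 replicate 1. After rescaling CCND1 and COL1A2 were called lower (0.0333 and 0.00372). NID2 and WNT5B were not called with rescaling and replicate 1 left out (0.0953 and 0.0953). Low genes limit the precision, since fold changes of RPKM + 1 shrink near 1 RPKM.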

Other observations

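Protein quality control genes were mixed and depended on the scale. Of 24 tested heat shock and chaperone genes 15 were higher and 2 lower (8 higher and 6 lower after rescaling, 13 higher and 2 lower without replicate 1). Of 19 autophagy genes 9 were higher and 2 lower (4 higher and 6 lower after rescaling, 9 higher and 2 lower without replicate 1). Of 26 proteasome subunits 6 were higher and 1 lower (6 lower after rescaling, 9 higher and 1 lower without replicate 1). In the list of NRF2 targets and iron genes 9 of 17 were higher and 3 lower (5 higher and 4 lower after rescaling, 11 higher and 2 lower without replicate 1).

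Genes of the pentose phosphate pathway and NADPH supply, which feed reductive synthesis, had 3 of 10 members higher and 4 lower (4 lower after rescaling, 3 higher and 3 lower without replicate 1). Stage 3+DMSO replicate 1 lay over 1 log2 unit above the mean of the other Stage 3+DMSO libraries in 139 tested genes and below it in 71, against 32 and 74 for replicate 2 and 52 and 54 for replicate 3.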
